A study of Sus scrofa with 6 samples.

Results

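Genes of the MHC class I pathway, which carries peptides from inside the cell to the cell surface, were followed through 5 cell lineages of the piglet ileum during the first 3 weeks after birth. The 10 genes are B2M, SLA-1, SLA-2, SLA-3, TAP1, TAP2, TAPBP, PSMB8, PSMB9 and NLRC5, chosen by name for their role in the pathway, and all 10 are among the 20648 genes of the deposited matrices. SLA is the name of the MHC in swine.

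In most nucleated cells, proteins are cut into peptides by the proteasome, and the inducible subunits PSMB8 and PSMB9 take the place of constitutive ones when the cell receives interferon. TAP1 and TAP2 form the pump that moves the peptides into the endoplasmic reticulum, and tapasin, the product of TAPBP, holds the pump next to an empty class I molecule until a peptide is bound. The class I molecule itself is a heavy chain, here SLA-1, SLA-2 or SLA-3, paired with beta-2 microglobulin from B2M, and NLRC5 is the transcriptional activator known for switching on most of these genes. The complex is read by CD8 T cells, and low levels are sensed by NK cells.

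Single cells were prepared from the ileum of male large white piglets that drank maternal milk, with no other treatment, at birth (day 0) and on days 1, 3, 7, 14 and 21. Each age has 1 library, so no difference between ages has a replicate, and p-values are given only where lineages or cell classes were compared within the same libraries. Several piglets were sampled at each age, and how their cells were combined in each library is not given in the sources used here. The 6 libraries hold 77391932 to 100348769 unique molecular identifiers (UMIs), each a tag that stands for 1 captured transcript whatever its length. Barcodes with at least 1000 UMIs and 500 genes were kept, 10836 to 15956 per library and 76099 in all, with median depths of 3693 to 4560 UMIs.

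Lineages were set by the UMIs of a few marker genes, none of them among the 10 genes. B barcodes carried at least 2 UMIs of MS4A1, PAX5 and POU2AF1 together, and T barcodes at least 2 of CD3E and CD3G. Myeloid barcodes carried at least 10 UMIs of LYZ, CST3 and AIF1, epithelial barcodes at least 5 of EPCAM, KRT8 and VIL1, and endothelial barcodes at least 3 of PECAM1 and FLT1. The rules found 52536 B, 5615 T, 4486 epithelial, 1691 myeloid and 800 endothelial barcodes. Of the kept barcodes 12756 (16.76%) passed no rule and 1709 (2.246%) passed more than 1 rule. No doublet caller was run, and barcodes that passed several rules were counted in each. Pairs of libraries shared 31 to 68 barcode sequences, where 18.12 to 32.45 were expected from independent draws, and every pair was above its expected number.

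The composition of the libraries moved strongly with age. B barcodes made up 22.5% of the day 0 library and 95.01% of the day 21 library. Epithelial barcodes numbered 2976, 1114, 103, 256, 36 and 1 from day 0 to day 21, and myeloid barcodes 411, 936, 205, 32, 100 and 7. Sums of fewer than 50 barcodes entered no comparison. Levels are given as UMIs of the gene per 10000 UMIs of all barcodes of a lineage in a library, with exact Poisson 95% intervals that cover counting error only.

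The endothelial and epithelial sums need care before their values are read. Endothelial barcodes held 2.25 and 3.15 UMIs per 10000 of CDH5, the cadherin of endothelial junctions, on days 0 and 1, 1.13 on day 3, and 0 UMIs of CDH5 and of VWF on days 14 and 21. The day 3 sum also held CD79B of B cells at 6.35 UMIs per 10000, against 0.349 and 0.431 on days 0 and 1, and 27 of its 64 barcodes passed the endothelial rule alone. On day 14 none of the 56 endothelial barcodes passed that rule alone, against 218 of 271 on day 0. By these markers the label was borne out on days 0 and 1, in part on day 3 and not on day 14. The sums of days 3 and 14 are part of the fit below, but their levels are not described as those of endothelium. The sums of days 0 and 1 also held epithelial transcripts. There the 8 endothelial markers together stood at 19.2 and 19.7 UMIs per 10000 and the 10 epithelial markers at 38.6 and 24.3. The part of these transcripts in the endothelial values was not tested. In the epithelial barcodes FABP2, a fatty acid binding protein of enterocytes, was at 5.29, 7.99, 0.030 and 10.96 UMIs per 10000 on days 0, 1, 3 and 7, while CHGA of enteroendocrine cells was at 6.99, 3.25, 22.9 and 1.47. The 4 enteroendocrine markers listed (CHGA, CHGB, PYY and NTS) together stood at 76.2, 26.1, 31.0 and 94.4, highest on day 7, where CHGA was lowest. The mixture of epithelial cells thus differed between ages, day 3 and day 7 included. The part of this mixture in the epithelial values was not tested. Among the myeloid barcodes of day 0, 240 of 411 passed that rule alone, and these held 4354 of the 14069 B2M UMIs of the sum. In this day 0 sum the epithelial marker list stood at 40.1 UMIs per 10000 and the myeloid list at 31.2. The myeloid list stood at 100.5, 12.2 and 55.9 in the myeloid sums of days 1, 3 and 14. Differences between myeloid sums may thus also be differences in the mixture of cells, and this part was not tested. Markers of the other cell types were present in the sums at some ages, with the summed epithelial list reaching 45.6 UMIs per 10000 in myeloid sums, 38.6 in endothelial, 17.6 in T and 13.7 in B.

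The genes lie on 3 chromosomes of the Sscrofa11.1 assembly. SLA-1 (chr7:22824137-22920154), SLA-2 (chr7:22916747-22959405) and SLA-3 (chr7:22938211-22942735) form 1 cluster in which the annotated spans overlap. Their coding sequences are closely related, so the split of reads between them is uncertain and their sum is given beside the single genes. TAP2 (chr7:25045085-25056915), PSMB8 (chr7:25058456-25061666), TAP1 (chr7:25062772-25071989) and PSMB9 (chr7:25072133-25077508) stand next to each other in the class II part of the region, and TAPBP (chr7:29663491-29673453) lies farther along the same chromosome. NLRC5 is on chromosome 6 (chr6:18933179-19036288). B2M is annotated at 2 neighbouring loci of chromosome 1 (chr1:126837721-126844043 and chr1:126865767-126878501) that share its symbol, and the matrices hold 1 row for it, so which locus was counted is not known.

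B2M, the shared light chain, differed with age in opposite directions in B cells and in epithelial and myeloid cells. In B barcodes it stood at 13.4, 16.5, 8.54, 6.11, 3.99 and 3.70 UMIs per 10000 on days 0, 1, 3, 7, 14 and 21. In T barcodes it stood at 18.2, 27.5, 19.3, 15.7, 21.8 and 26.4 UMIs per 10000 at the same ages. The B and T ranges overlapped only because the B level of day 1 exceeded the T level of day 7, and within every library T was the higher. Myeloid barcodes held 16.8, 28.8, 23.4 and 36.2 UMIs per 10000 of B2M on days 0, 1, 3 and 14, and epithelial barcodes 10.6, 18.9, 12.1 and 40.7 on days 0, 1, 3 and 7. With barcodes that passed only the myeloid rule, B2M was at 25.7 on day 0. The 36 epithelial barcodes of day 14 held 55.0 UMIs per 10000 (95% interval 52.4 to 57.7). Endothelial barcodes held 20.2 on day 0 and 27.5 on day 1. Epithelial cells thus started with the lowest B2M level of the lineages on day 0 and had the highest of the 3 compared on day 7.

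The heavy chains followed the same split. Summed over SLA-1, SLA-2 and SLA-3, B barcodes held 17.7, 23.5, 13.8, 17.7, 7.14 and 6.85 UMIs per 10000 from day 0 to day 21. T barcodes held 24.1, 37.8, 25.7, 44.9, 47.9 and 48.1. The T level was above the B level in all 6 libraries, and the gap widened from days 0 to 3 to the later ages. Myeloid barcodes held 12.3, 27.5, 25.02 and 50.1 on days 0, 1, 3 and 14. On day 0 the single genes SLA-1, SLA-2 and SLA-3 were at 5.52, 4.39 and 2.44 in all myeloid barcodes. They were at 9.50, 9.17 and 5.49 in those that passed only the myeloid rule, so the low day 0 level rested on barcodes of more than 1 rule. Epithelial barcodes held 6.43 (6.36 to 6.50), 14.5, 9.21 and 49.6 (48.6 to 50.7) on days 0, 1, 3 and 7, and the 36 barcodes of day 14 held 80.0. In newborn epithelium the heavy chains were thus at the lowest level of any lineage, and in the first week they reached that of T cells.

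**Figure D1:**
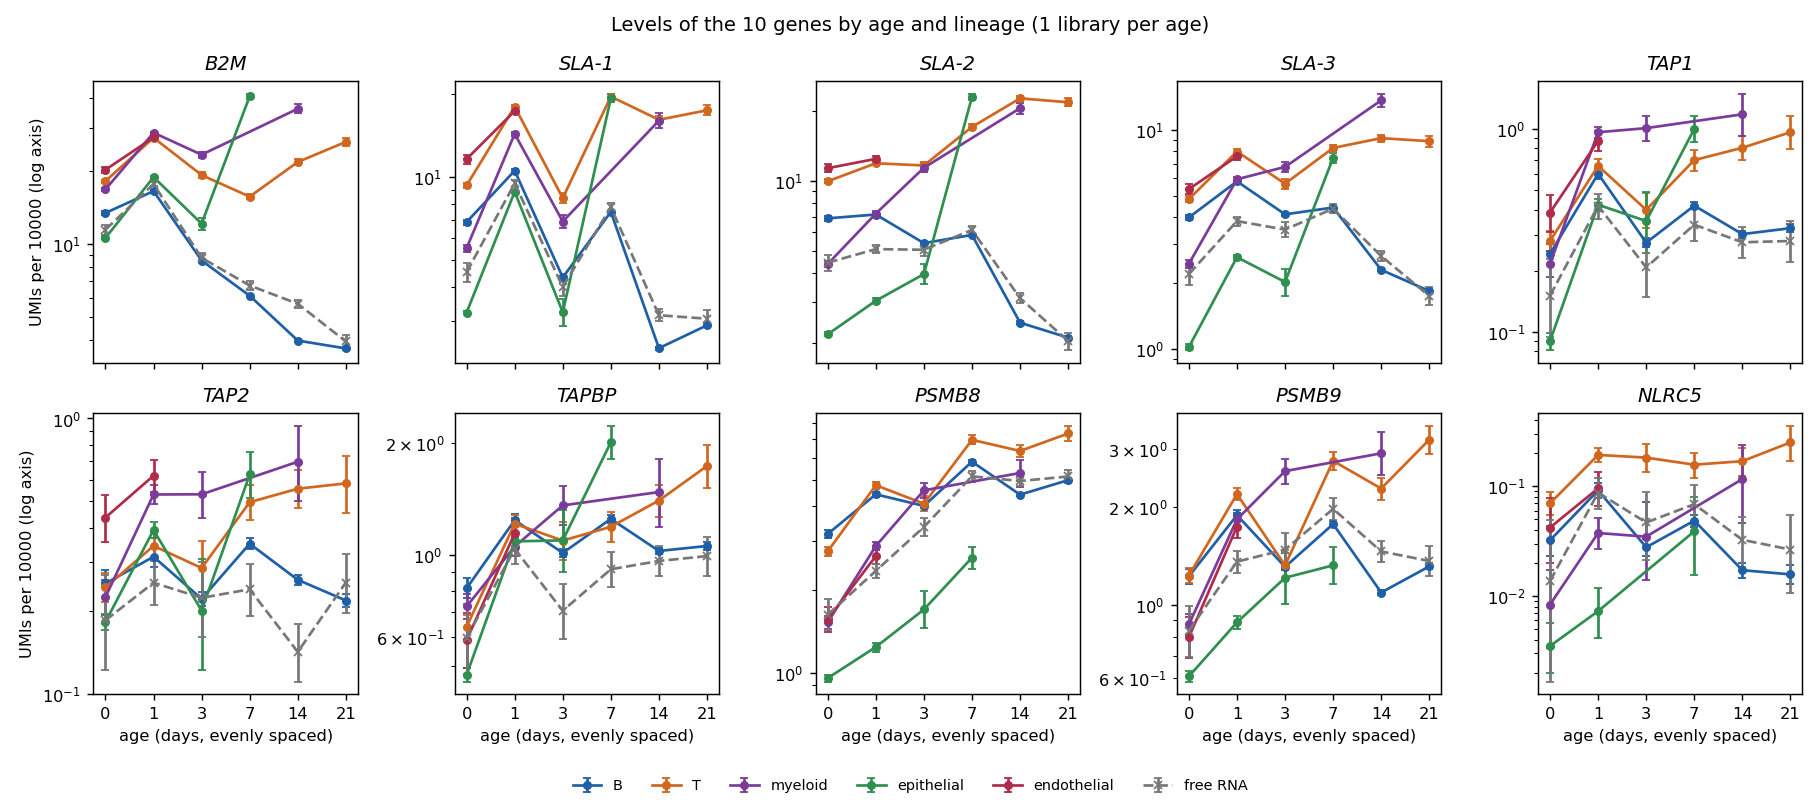
UMIs per 10000 (log axis) of each of the 10 genes against age, with 1 line per lineage and exact Poisson 95% intervals; the grey dashed line is RNA in barcodes of 100 UMIs or fewer, endothelial sums are drawn for days 0 and 1 only, and sums of 0 UMIs cannot be drawn on the log axis. In B sums B2M is at 13.4 UMIs per 10000 on day 0 and 3.70 on day 21, while the epithelial line is at 10.6 on day 0 and 40.7 on day 7.

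Levels inside cells were set beside RNA free in the suspension, taken from barcodes with 100 UMIs or fewer. The summed heavy chains were at 11.1, 18.4, 12.5, 18.3, 8.93 and 6.85 UMIs per 10000 of free RNA from day 0 to day 21, close to the B level of the later libraries, which are nearly all B cells. T barcodes held 1.55 to 6.67 times the free level of B2M. Epithelial barcodes held 0.493, 0.600 and 0.786 times the free level of SLA-2 on days 0, 1 and 3, and 3.73 times on day 7. On days 0 to 3 the epithelial heavy chain values were therefore at or below what free RNA could give, and on day 7 they stood above it. The 36 epithelial barcodes of day 14, too few to be compared, were also above it, with a heavy chain sum of 80.0 against 8.93. The epithelial PSMB8 level was 0.502 to 0.589 times the free level at every age, so expression of PSMB8 in these epithelial cells could not be told from background.

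The balance between the 3 heavy chain rows was not the same at all ages. The ratio of SLA-1 to SLA-2 UMIs ranged from 0.802 to 1.47 in B barcodes, from 0.715 to 1.52 in T barcodes and from 0.813 to 2.90 in epithelial barcodes. SLA-1 alone stood at 10.5 UMIs per 10000 in B barcodes on day 1 and at 4.32 on day 3, while SLA-2 stood at 7.16 and 5.39. In T barcodes SLA-1 went from 18.0 to 8.39 between the same libraries and SLA-2 from 11.9 to 11.6. Ratios of this kind moved in several lineages of a library at once.

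The peptide pump of TAP1 and TAP2 was measured on few UMIs. TAP1 was at 0.242, 0.600, 0.275, 0.418, 0.303 and 0.324 UMIs per 10000 in B barcodes and at 0.280, 0.656, 0.399, 0.700, 0.806 and 0.960 in T barcodes from day 0 to day 21. In epithelial barcodes it was at 0.0900 (0.0815 to 0.0991), 0.422, 0.351 and 0.997 (0.857 to 1.15) on days 0, 1, 3 and 7. TAP1 was thus higher in the T sum than in the B sum of every library, and the epithelial sum reached the T level by day 7. In myeloid barcodes it was at 0.216, 0.961, 1.01 and 1.18 on days 0, 1, 3 and 14, and at 0.455 on day 0 in those that passed only the myeloid rule. TAP2 ranged from 0.218 to 0.351 UMIs per 10000 over the B sums, from 0.243 to 0.581 over the T sums and from 0.182 to 0.626 over the epithelial sums. TAPBP varied least of the 10 over the B sums, at 0.811 to 1.25 UMIs per 10000, against 0.474 to 2.01 in epithelial barcodes.

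PSMB8 and PSMB9, the inducible catalytic subunits, behaved unlike the heavy chains in B cells. PSMB8 was at 3.18, 4.43, 4.02, 5.81, 4.42 and 4.98 UMIs per 10000 in B barcodes and at 2.75, 4.78, 4.09, 6.97, 6.36 and 7.35 in T barcodes from day 0 to day 21. Epithelial barcodes held 0.956, 1.24, 1.69 and 2.61 on days 0, 1, 3 and 7, below every B and T sum of the same libraries. PSMB9 ranged from 1.09 to 1.89 in B, from 1.23 to 3.21 in T and from 0.606 to 1.32 in epithelial sums. In B barcodes PSMB8 was at 1.96 times the free level on day 0 and at 0.892 and 0.970 times it on days 14 and 21.

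The ratio of an inducible to its constitutive partner was taken within each sum, so that it does not depend on the total. The PSMB8 to PSMB5 ratio was 4.07 to 8.03 in B barcodes and 3.57 to 10.5 in T barcodes. It was 0.582 (0.560 to 0.604), 0.861, 0.939 and 2.43 (2.05 to 2.88) in epithelial barcodes on days 0, 1, 3 and 7, and 1.04, 2.59, 4.52 and 7.09 in myeloid barcodes on days 0, 1, 3 and 14. Endothelial barcodes held 0.871 on day 0 and 1.38 on day 1. The lymphocyte ranges did not overlap the epithelial range. PSMB5 itself was lower by over 1.5-fold in epithelial barcodes on day 7 and in myeloid barcodes on day 14, each against day 0. It was 1 of 7 listed proteasome genes, against 20% and 38.5% of all genes, so these ratios also moved through the constitutive subunit. The PSMB9 to PSMB6 ratio was 0.308 on day 0 and 0.824 on day 7 in epithelial barcodes, and 0.843 on day 0 and 0.543 on day 21 in B barcodes. PSMB10, the inducible partner of PSMB7, did not separate the lineages, with ratios of 0.343 to 0.837 in B and 0.724 to 0.975 in epithelial barcodes. Free RNA carried PSMB8 at a higher level than the epithelial sums, and myeloid PSMB8 was at 0.939, 1.23, 1.36 and 1.07 times the free level on days 0, 1, 3 and 14, so the part of free RNA in the epithelial and myeloid ratios was not tested.

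**Figure D2:**
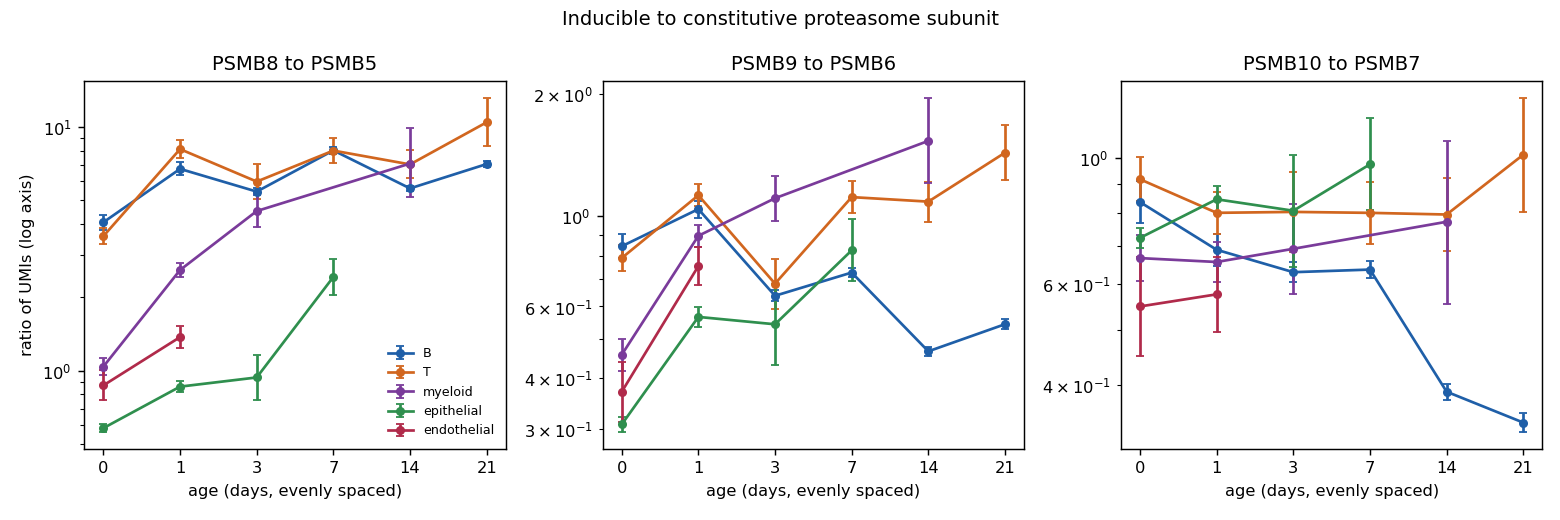
Ratio of UMIs of each inducible proteasome subunit to its constitutive partner (log axis) against age, 1 line per lineage, with exact conditional binomial 95% intervals; endothelial sums are drawn for days 0 and 1. The PSMB8 to PSMB5 ratio separates B and T sums (3.57 to 10.5) from epithelial sums (0.582 to 2.43), and the myeloid ratio is 1.04 on day 0 and 7.09 on day 14.

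NLRC5, the activator, had the fewest UMIs of the 10 genes. T barcodes held 0.0698, 0.192, 0.182, 0.157, 0.169 and 0.250 UMIs per 10000 from day 0 to day 21, and B barcodes 0.0322, 0.0915, 0.0278, 0.0485, 0.0172 and 0.0157. The T level was above the B level in every library. Epithelial barcodes held 16, 16, 0 and 7 UMIs of NLRC5 in all on days 0, 1, 3 and 7, and the 0 UMIs of day 3 allow a level of up to 0.0301 UMIs per 10000 (a limit of 3 UMIs). These epithelial values were 0 to 0.566 times the level of free RNA, and are read as background. The B values of days 3 to 21 were 0.529 to 0.709 times it, with intervals that reached above 1 except on day 14 (0.315 to 0.950).

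Lineages were compared within libraries with edgeR's quasi-likelihood test on summed UMI counts, with the library as a block and Benjamini-Hochberg adjustment over 13304 genes. The sums that entered were 6 each for B and T and 4 each for myeloid, epithelial and endothelial barcodes. The sums of a library come from the same piglets, and the spread measured is that between libraries of different ages. Of the 10 genes, T cells had the most called higher in this fit. Against the mean of the other 4 lineages, NLRC5 was higher by 2.53 ± 0.39 on the log2 scale (SE; adjusted p = 0.00013), SLA-1 by 0.89 ± 0.31 (adjusted p = 0.033), PSMB8 by 0.83 ± 0.13 (adjusted p = 0.00013) and PSMB9 by 0.59 ± 0.18 (adjusted p = 0.018). These are 4 of the 10 genes, and 16.2% of all genes tested were called higher in T cells. SLA-2 missed the threshold (1.06 ± 0.41, adjusted p = 0.052). The count for T cells was 2 without the day 0 library and 2 without the day 1 library. Without the day 0 library it was below the 3 of myeloid cells, and with raised lineage thresholds both lineages had 2. Set directly against myeloid cells, only NLRC5 was higher in T (2.29 ± 0.64, adjusted p = 0.012 in edgeR), 1 of the 10 against 14.2% of all genes. None was lower, against 17.7%. Directly against the endothelial sums, PSMB8 and PSMB9 were higher in T, 2 of the 10 against 11.6%, and none was lower, against 12.1%. T cells were thus not set apart from myeloid cells by most of the 10 genes.

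Epithelial cells were lower for 4 of the 10 genes, against 24.3% of all genes tested. NLRC5 differed by -2.97 ± 0.66 (adjusted p = 0.0012), PSMB8 by -1.31 ± 0.17 (adjusted p = 1.9e-05), SLA-3 by -1.29 ± 0.43 (adjusted p = 0.019) and PSMB9 by -0.81 ± 0.23 (adjusted p = 0.0063). With barcodes that passed only 1 rule, 8 of the 10 were lower, and without the day 1 library 2. Set directly against T cells, where 23.7% of all genes were higher in T, 6 of the 10 were higher in T cells, and they were SLA-1 (1.32 ± 0.46, adjusted p = 0.024), SLA-2 (1.67 ± 0.64, adjusted p = 0.037), SLA-3 (1.63 ± 0.48, adjusted p = 0.0089), PSMB8, PSMB9 and NLRC5. This count was 3 without the day 0 or the day 3 library, 2 without the day 1 library, 7 without the day 7 library and 2 with at least 20 barcodes per sum. These differences average over ages at which the epithelial level itself differed several-fold.

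In B cells 1 of the 10 genes was higher and 1 lower than in the other lineages. PSMB8 was higher in B than in the mean of the others by 0.80 ± 0.13 (adjusted p = 0.00011), 1 gene of the 10 against 29.1% of all genes, and B2M was lower (-1.05 ± 0.33, adjusted p = 0.014), 1 gene of the 10 against 23.8%. DESeq2 called 4 of the 10 lower in B, and so did the fit without the day 0 library. Directly against T cells, B2M (-1.23 ± 0.39, adjusted p = 0.032), SLA-1 (-1.24 ± 0.38, adjusted p = 0.029) and NLRC5 (-2.01 ± 0.47, adjusted p = 0.0047) were lower in B, 3 of the 10 against 8.52% of all genes. SLA-2 (-1.44 ± 0.51, adjusted p = 0.054) and SLA-3 (-0.81 ± 0.39, adjusted p = 0.16) did not pass the threshold, nor did PSMB8 (-0.03 ± 0.16) and PSMB9 (-0.35 ± 0.21), and of the 7 other proteasome genes listed PSME2 and PSMB10 were lower in B. Without the library block this count was 1, and it was also 1 without the day 1, the day 3 or the day 21 library.

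In myeloid cells TAP1 was higher than in the mean of the others (0.90 ± 0.29, adjusted p = 0.042), 1 gene of the 10 against 11.1% of all genes. DESeq2 called 2. In edgeR the call was lost without the day 1, the day 3 or the day 14 library, where 2, 0 and 1 of the 10 had an unadjusted p below 0.05, and 3 genes were called without the day 0 library. In the endothelial sums PSMB8 (-0.55 ± 0.16, adjusted p = 0.027) and TAPBP (-0.51 ± 0.17, adjusted p = 0.045) were lower, 2 of the 10 against 5.6% of all genes, and with any 1 of the 6 libraries left out edgeR called 0, with 1 to 3 at an unadjusted p below 0.05. DESeq2 called 0, with 2 at an unadjusted p below 0.05. The endothelial sums of days 3 and 14 in this contrast are those described above.

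**Figure D3:**
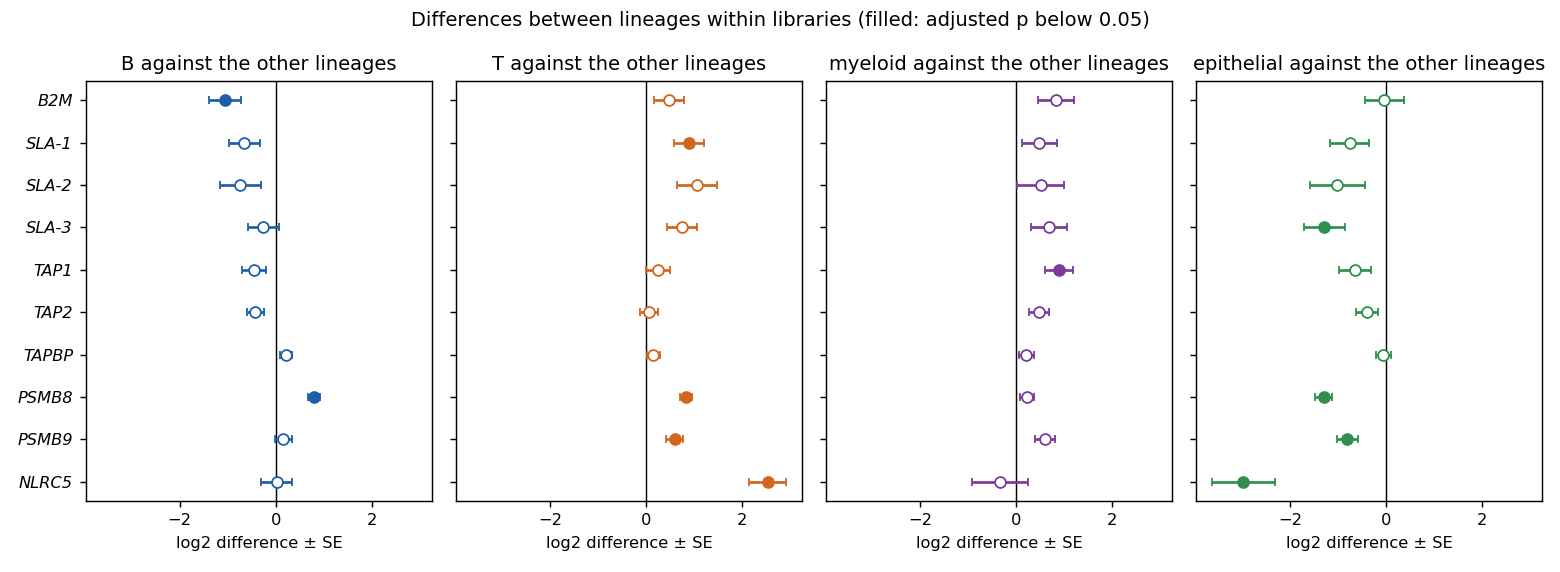
Log2 difference of each of the 10 genes between 1 lineage and the mean of the other 4 in edgeR, with its SE, in 4 panels; filled points have an adjusted p below 0.05. NLRC5 lies at 2.53 in T cells and at -2.97 in epithelial cells, and PSMB8 lies at 0.80 in B, 0.83 in T and -1.31 in epithelial cells.

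Ages were compared within a lineage as ratios of levels, with exact conditional binomial 95% intervals for counting error and no test, since each age has 1 library. A gene was counted as higher or lower when it was past 1.5-fold with at least 20 UMIs over both sums. In epithelial cells all 10 genes were higher on day 7 than on day 0, against 32.4% of all genes. SLA-2 was 10.5-fold higher (95% interval 10.1 to 10.8), TAP1 11.1-fold (9.25 to 13.2), SLA-3 7.31-fold, SLA-1 5.99-fold, TAPBP 4.25-fold, B2M 3.85-fold and TAP2 3.43-fold. PSMB8 (2.73-fold) and PSMB9 (2.19-fold) differed least. NLRC5 was 11.1-fold higher (3.85 to 28.4) on 16 and 7 UMIs. In the day 0 sum all 10 were at or below the free level, SLA-2 at 0.493, TAP1 at 0.597 and SLA-3 at 0.464 times its level, so the folds start from a level that could be background, while on day 7 B2M was at 6.05, SLA-2 at 3.73, TAP1 at 2.96 and SLA-3 at 1.71 times it. PSMB8, PSMB9 and NLRC5 were below free RNA in both sums, PSMB8 at 0.589 and 0.507, PSMB9 at 0.725 and 0.671 and NLRC5 at 0.256 and 0.566 times its level, and free PSMB8 itself was at 1.62 UMIs per 10000 on day 0 and 5.14 on day 7, so their differences could not be told from those of free RNA. None was lower, against 20% of all genes. The median of the 10 log2 ratios was 2.33, and that of all genes 0.21. With barcodes that passed only 1 rule SLA-2 was 12.3-fold and B2M 4.43-fold higher. The enterocyte markers FABP2 and FABP6 moved with these genes, FABP6 from 11.4 UMIs per 10000 on day 0 to 92.4 on day 7, and so did B markers, summed at 0.412 and 5.83. The median depth of the epithelial barcodes was 10394.5 UMIs on day 0 and 5686.5 on day 7, and their median mitochondrial share 7.72% and 12.4%. The part of these in the difference was not tested.

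T cells of day 21 held more of 9 of the 10 transcripts than those of day 0, against 34.2% of all genes. NLRC5 was 3.58-fold higher (2.28 to 5.52), TAP1 3.43-fold, TAPBP 2.72-fold, PSMB8 2.67-fold, PSMB9 2.61-fold, TAP2 2.39-fold, SLA-2 2.19-fold, SLA-1 1.87-fold and SLA-3 1.84-fold. PSMB8 was at 1.70 times the free level on day 0 and 1.43 on day 21, while free PSMB8 itself went from 1.62 to 5.14 UMIs per 10000, and TAPBP was at 1.07 (0.857 to 1.36) times the free level on day 0, so the part of free RNA in both differences was not tested. B2M was at 1.45-fold (1.40 to 1.51), and none of the 10 was counted as lower, against 26.1%. The median of the 10 log2 ratios was 1.32 against 0.24 for all genes. With TMM scaling in place of the total, SLA-1 and SLA-3 were under 1.5-fold. Of the T barcodes 87.3% passed that rule alone on day 0 and 65.9% on day 21, and with those barcodes alone B2M was 1.60-fold and NLRC5 3.69-fold higher. In the T sums the 8 B markers together stood at 1.37 UMIs per 10000 on day 0 and 10.7 on day 21 and the 10 epithelial markers at 17.6 and 0.210, and their part in the result was not tested.

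In myeloid cells the 9 genes with at least 20 UMIs were all higher on day 14 than on day 0, against 25.2% of all genes. SLA-3 was 5.58-fold (5.14 to 6.05), TAP1 5.45-fold, SLA-2 4.67-fold, PSMB8 3.47-fold and B2M 2.15-fold higher. PSMB8 was at 0.939 and 1.07 times the free level in these sums, so its difference could not be told from that of free RNA, while B2M was at 1.47 and 6.38 and SLA-2 at 0.987 and 6.54 times it. None was lower, against 38.5% of all genes. The tenth, NLRC5, had 7 UMIs in each sum. The median of the 9 log2 ratios was 1.74, and 1.09 with barcodes that passed only the myeloid rule, where SLA-3 was 2.84-fold, SLA-2 2.73-fold and B2M 1.72-fold higher. The median was 1.08 with the mean over barcodes and 1.47 with raised lineage thresholds. The size of the myeloid difference thus depended on which barcodes entered and on how they were averaged. In the myeloid sums the 10 epithelial markers together stood at 40.1 UMIs per 10000 on day 0 and 0.050 on day 14, with 8 of the 10 at 0, and the 8 B markers at 0.894 and 8.21, and their part in the result was not tested.

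B cells went the other way for the molecule itself. On day 21 B2M was 3.62-fold (3.55 to 3.70), SLA-2 3.25-fold, SLA-1 2.37-fold, SLA-3 2.17-fold and NLRC5 2.05-fold lower than on day 0, 5 of the 10 genes against 29% of all genes. None of the 4 genes of the pump, its partner tapasin and PSMB9 was past 1.5-fold. TAP1 was at 1.34-fold (1.18 to 1.51) and TAPBP at 1.30-fold the day 0 level, PSMB9 at 1.07-fold and TAP2 at 0.867-fold. PSMB8 was the 1 gene counted as higher, at 1.57-fold (1.52 to 1.62), against 36.6% of all genes, and it was under 1.5-fold with barcodes that passed only 1 rule (1.29-fold) and under 3 other settings. The median of the 10 log2 ratios was -0.62 and that of all genes 0.24. Scaling by TMM in place of the total moved the log2 ratio of every gene by -0.30 in B and -0.41 in T, and the directions of B2M and the 3 SLA genes were the same under both scalings. With TMM, SLA-1 and SLA-3 in T cells were no longer past 1.5-fold. In B barcodes B2M was at 1.17 times the free level on day 0 and at 0.705 to 0.975 times it on days 1 to 21, and from day 7 SLA-1 was at 0.759 to 0.961, SLA-2 at 0.785 to 1.03, SLA-3 at 0.865 to 1.05 and PSMB8 at 0.892 to 1.13 times it. Free PSMB8 stood at 1.62 UMIs per 10000 on day 0 and 5.14 on day 21. Free B2M itself stood at 11.5 UMIs per 10000 on day 0 and 3.96 on day 21, and on that day PSMB9 was at 0.963, TAP2 at 0.861, TAPBP at 1.06 and TAP1 at 1.16 times the free level. The 8 B markers together stood at 37.5 UMIs per 10000 in B barcodes and 35.7 in free RNA on day 21, against 16.9 and 3.52 on day 0. On day 21 free RNA thus did not separate B levels from background for any of the 10 genes. On day 14 TAP2 was above free RNA, at 1.83 (1.44 to 2.35) times its level. On day 7 TAP2 was at 1.46 (1.18 to 1.84), TAPBP at 1.37 (1.22 to 1.53), TAP1 at 1.24 (1.03 to 1.51) and PSMB8 at 1.13 (1.08 to 1.19) times it. In the B sums the 10 epithelial markers together stood at 13.7 UMIs per 10000 on day 0 and 0.036 on day 21. The 4 enteroendocrine markers stood at 18.3 and 0.015 and the 2 erythroid markers at 0.036 and 11.9, and their part in the result was not tested. Fewer transcripts per cell and fewer cells with the transcript cannot be told apart in these sums.

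**Figure D4:**
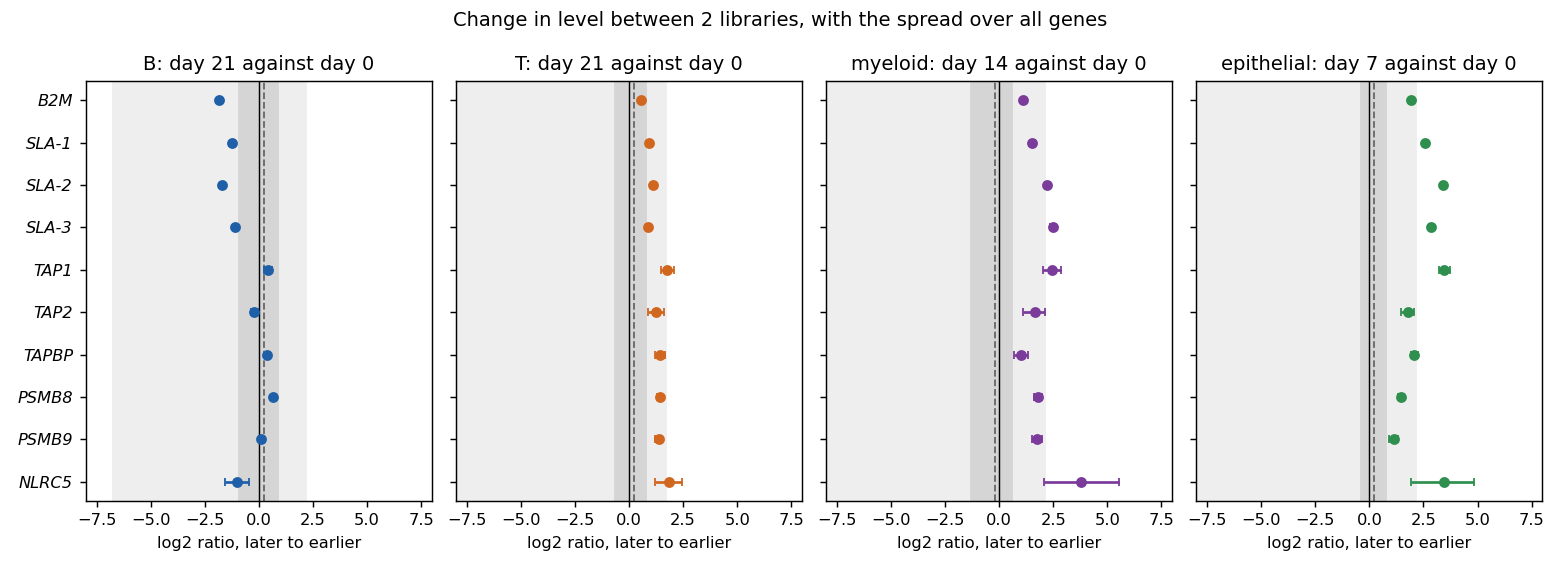
Log2 ratio of the later to the earlier age for each of the 10 genes in 4 lineages, with exact conditional binomial 95% intervals; the dashed line is the median over all genes with at least 20 UMIs, the dark band their middle 50% and the light band their middle 90%, which runs to the edge of a panel where the outermost genes had 0 UMIs in 1 sum. In epithelial cells all 10 points lie to the right of 0, with a median of 2.33, while in B cells B2M and the 3 SLA genes lie to the left.

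Between day 0 and day 1 all 5 lineages moved the same way. The genes counted as higher were 5 in B (SLA-1, TAP1, TAPBP, PSMB9 and NLRC5), 8 in T, 9 in myeloid, 7 in epithelial and 5 in endothelial barcodes, and the background of all genes counted as higher was 6.89%, 7.73%, 16.7%, 15.3% and 14.9%. TAP1 was 2.48-fold higher in B, 2.34-fold in T, 4.45-fold in myeloid, 4.69-fold in epithelial and 2.26-fold in endothelial barcodes, the highest ratio of the 10 genes in epithelial barcodes and the highest after NLRC5 in the other 4 lineages. SLA-1 was 1.54-fold, 1.93-fold, 2.60-fold, 2.74-fold and 1.49-fold higher in the same order. With barcodes that passed only the myeloid rule, B2M was at 25.7 and 37.2 UMIs per 10000 on days 0 and 1. SLA-2 was there at 9.17 and 10.1 and PSMB8 at 2.79 and 3.86, so that B2M, SLA-2 and PSMB8 were under 1.5-fold. TAP1, at 0.455 and 1.35, and SLA-1, at 9.50 and 19.3, remained past it. With barcodes that passed only the endothelial rule, TAP1 was at 1.95-fold, PSMB9 at 1.83-fold and TAPBP at 1.70-fold the day 0 level. The rest of the 10 genes were there under 1.5-fold, with NLRC5 at 1.21-fold. None of the 10 was counted as lower in any lineage, against 18.9% of all genes in B, 24.7% in T, 21.6% in myeloid, 14.2% in epithelial and 11.6% in endothelial barcodes. Of the 15 regulators listed 5 were higher in B, 3 in T, 6 in myeloid and 6 in epithelial barcodes. Among them IRF1, a transcription factor that acts on class I promoters, was 3.16-fold higher in B, 2.33-fold in T, 3.27-fold in myeloid and 3.30-fold in epithelial barcodes. Free IRF1 was at 0.733 UMIs per 10000 on day 0 and 2.06 on day 1. Free RNA moved the same way, with TAP1 at 0.151 UMIs per 10000 on day 0 and 0.417 on day 1 and SLA-1 at 4.51 and 9.48, ratios above those of these genes in B, T and endothelial barcodes, and the part of free RNA in these differences was not tested. Free RNA of the day 1 library was also richer in B2M, at 17.7 against 11.5 UMIs per 10000, and in the summed heavy chains, at 18.4 against 11.1.

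From day 1 to day 3 the direction was the opposite for several genes. In B, 4 of the 10 genes were lower, against 21% of all genes, namely B2M, SLA-1, TAP1 and NLRC5, and SLA-1 was at 0.410-fold. In T 3 of the 10 were lower, against 19.2%, and in epithelial barcodes 3 of the 9 with enough UMIs, against 24.5%. From day 3 to day 7 the direction changed again, with 4 genes higher in B against 13.7% of all genes, 5 in T against 18.7% and 8 of 9 in epithelial barcodes against 30.8%. In B cells 6 of the 10 were then lower from day 7 to day 14, against 18.6%, with SLA-1 at 0.320-fold, NLRC5 at 0.354-fold and SLA-2 at 0.420-fold. The largest step down of the summed heavy chains in B cells thus lay between these 2 libraries, whereas B2M was lower at each step after day 1.

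The counts at the other steps were as follows. From day 1 to day 3 none of the 10 was higher in B, T or epithelial barcodes, against 23.2%, 29.3% and 30.9% of all genes. From day 3 to day 7 none was lower in these 3 lineages, against 13.9%, 12.4% and 18%. None was higher in B from day 7 to day 14, against 11.3%, and from day 14 to day 21 none was higher or lower in B, against 8.96% and 9.98%. In T none was higher or lower from day 7 to day 14, against 12.2% and 7.14%, or from day 14 to day 21, against 13.4% and 11.9%. On day 7 the T barcodes held more than on day 0 for 9 of the 10, against 27.8%, and none lower, against 26.1%. In B cells on day 7 B2M was 1 gene of the 10 lower than on day 0, against 26.5%, while TAP1 (1.73-fold), TAPBP (1.54-fold), PSMB8 (1.83-fold) and NLRC5 (1.51-fold) were 4 genes higher, against 29.2%, a count that was 1 with TMM scaling and 2 with barcodes that passed only 1 rule. The heavy chains of B cells, by contrast, stood on day 7 within 1.5-fold of day 0.

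In myeloid barcodes SLA-2 and PSMB8 were 2 genes higher on day 3 than on day 1, against 26.8% of all genes, and SLA-1 was 1 gene lower, against 24.8%. From day 3 to day 14 B2M and the 3 SLA genes were 4 genes higher of the 9 with enough UMIs, against 17.8%, and none was lower, against 26.2%. The 10 myeloid markers together stood at 100.5, 12.2 and 55.9 UMIs per 10000 in the myeloid sums of days 1, 3 and 14. The part of a changed mixture of cells in these steps was not tested. The endothelial sums of days 3 and 14, mixed or without endothelial markers as described, had 3 genes lower and none higher on day 3 against day 1, beside 38.1% and 17.7% of all genes. On day 14 against day 0 they had 4 lower and 1 higher, beside 41.6% and 22.9%, and on day 14 against day 3 they had 5 lower and none higher, beside 22.2% and 17.5%.

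Interferon-stimulated genes, 23 of which were listed, moved with class I at several of these steps. Summed, they were at 8.05, 20.7, 9.09, 16.9, 12.4 and 6.59 UMIs per 10000 in B barcodes and at 13.2, 24.6, 14.4, 49.4, 88.4 and 36.2 in T barcodes from day 0 to day 21. Epithelial barcodes held 5.27, 16.3, 13.01 and 28.6 on days 0, 1, 3 and 7, and myeloid barcodes 9.25, 48.1, 10.9 and 269 on days 0, 1, 3 and 14. From day 0 to day 1, 22 of the 23 were higher in B against 6.89% of all genes, 18 in T against 7.73%, 23 in myeloid against 16.7%, 22 in epithelial against 15.3% and 16 of the 22 with enough UMIs in endothelial barcodes against 14.9%. Free RNA held 8.42 UMIs per 10000 of this group on day 0 and 23.3 on day 1, above the B and epithelial sums at both ages, and the sums went from 13.2 to 24.6 in T and from 19.1 to 40.9 in endothelial barcodes, ratios below that of free RNA, so outside the myeloid barcodes the part of free RNA in these differences was not tested. The 2 groups did not always move together. In T cells the interferon-stimulated sum was 88.4 on day 14 and 36.2 on day 21 while the heavy chains were at 47.9 and 48.1, and in myeloid cells it was 48.1 on day 1 and 10.9 on day 3 while the heavy chains were at 27.5 and 25.02. The 10 myeloid markers together stood at 100.5 and 12.2 in these 2 myeloid sums, and the part of a changed mixture of cells was not tested. IFNG, which encodes interferon gamma, was at 0.033, 0.151, 0, 0.0915, 0.0844 and 0.129 UMIs per 10000 in T barcodes and at 0.00241 or less in B barcodes, where the 0 UMIs of T barcodes on day 3 allow a level of up to 0.0116 (a limit of 3 UMIs), and in the fit it was higher in T than in the mean of the others by 6.50 ± 0.46 (edgeR).

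B cells in the cell cycle were set beside those out of it, because B barcodes fill the later libraries and the share in cycle changed with age. Each barcode was thinned to 1000 UMIs, and those with at least 2 UMIs of MKI67, TOP2A, TPX2, UBE2C, BIRC5 and CDK1 were taken as cycling and those with 0 as not cycling. Cycling barcodes were 2.69%, 3.16%, 10.8%, 15.7%, 39.5% and 24.3% of the 2 classes from day 0 to day 21. In edgeR's quasi-likelihood test with the library as a block, 9 of the 10 genes were lower in cycling B cells, against 24.5% of the 11654 genes tested. B2M was lower by -1.05 ± 0.08 on the log2 scale (adjusted p = 1.3e-06), SLA-2 by -1.03 ± 0.07 (adjusted p = 2.8e-07), SLA-1 by -0.89 ± 0.08 (adjusted p = 5.1e-06) and NLRC5 by -1.14 ± 0.23 (adjusted p = 0.0019). TAPBP (-0.47 ± 0.08), TAP1 (-0.49 ± 0.09), TAP2 (-0.40 ± 0.09), SLA-3 (-0.63 ± 0.07) and PSMB9 (-0.22 ± 0.06) were lower by less, and PSMB8 was at -0.09 ± 0.07 (adjusted p = 0.35). B2M was lower in cycling barcodes in 6 of 6 libraries, at 0.467 to 0.604 times the level of the others. Without the library block none passed the adjusted threshold and 3 had an unadjusted p below 0.05, and DESeq2 with the block called 9. The difference was not particular to class I. In the edgeR fit with the block, 9 of 9 class II genes and 21 of 22 interferon-stimulated genes tested were also lower. Their median log2 differences were -0.75 and -1.25, beside -0.56 for the 10 genes and -0.05 for all genes. Free RNA was not set beside the 2 classes, and its part in the difference was not tested.

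The difference was measured as a share of UMIs, and per barcode it was not the same. Cycling barcodes held more UMIs, with medians of 5476 to 8001 against 3459 to 4025. Counted per barcode, B2M was at 0.728 to 1.24 times and SLA-2 at 0.730 to 1.31 times the value of non-cycling barcodes, lower in 3 of 6 libraries each, SLA-3 was lower in 1 and NLRC5 in 5 of 6, and TAP1, TAP2, TAPBP, PSMB8 and PSMB9 were higher per barcode in all 6. The age difference was also present in B cells without cycling UMIs. There B2M was 3.22-fold, SLA-2 2.83-fold, SLA-1 2.17-fold and SLA-3 2.03-fold lower on day 21 than on day 0, and PSMB8 was 1.61-fold higher.

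**Figure D5:**
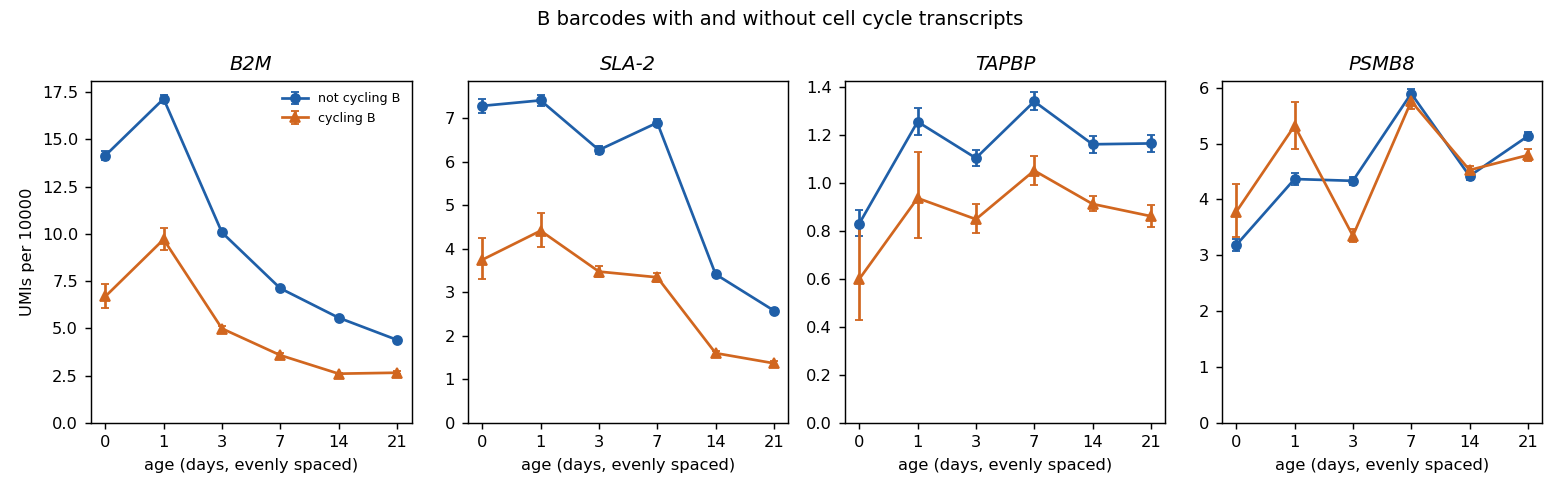
UMIs per 10000 of B2M, SLA-2, TAPBP and PSMB8 in B barcodes with cycling transcripts (triangles) and without (circles) against age, with exact Poisson 95% intervals. B2M in cycling barcodes lies at 0.467 to 0.604 times the other class in every library, both classes are lower on day 21 than on day 0 for B2M, and the classes cross for PSMB8.

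Other genes of the pathway were compared in the same fit. Of the 9 class II genes listed, 9 were higher in B cells against 29.1% of all genes, 8 in myeloid cells against 11.1% and 9 lower in epithelial cells against 24.3% in the edgeR fit, so that the B lineage, low in B2M, was high in the other class of MHC. CIITA, the class II activator related to NLRC5, was higher in B by 1.89 ± 0.20 and lower in epithelial cells by -2.80 ± 0.34 (edgeR, each with an adjusted p below the threshold). Among 7 genes of peptide loading and trimming, ERAP2, an aminopeptidase that trims peptides for class I, was higher in T by 1.38 ± 0.15 and in B by 0.76 ± 0.15, and lower in epithelial (-0.86 ± 0.20) and myeloid cells (-0.92 ± 0.20). ERAP1 was higher in T by 0.56 ± 0.20. The chaperone CANX was higher in epithelial cells by 0.69 ± 0.09 and in myeloid cells, and lower in T and B. CALR was higher in epithelial cells and lower in T, and PDIA3 was lower in B. Of the 7, T had 2 higher and 2 lower, against 16.2% and 18.4% of all genes, and B 1 and 2, against 29.1% and 23.8%. Epithelial cells had 2 higher and 1 lower, against 27.5% and 24.3%, and myeloid cells 1 and 1, against 11.1% and 7.48%. From day 0 to day 7, 6 of these 7 genes were higher in epithelial cells, against 32.4% of all genes, as were 9 of 15 regulators. None of the 7 listed proteasome genes was higher and 1, PSMB5, was lower, against 20% of all genes. The 9 class II genes were also counted as higher, but their sum of 4.22 and 19.9 UMIs per 10000 on days 0 and 7 was below that of free RNA, at 28.7 and 99.3, and is at background.

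The other class I genes were followed where they had rows. SLA-6 and SLA-8, non-classical class I genes, were higher in T cells by 1.34 ± 0.27 and 0.99 ± 0.18 and lower in epithelial cells by -2.64 ± 0.40 and -0.99 ± 0.23 in the edgeR fit. Of the 6 listed genes tested, 3 were higher in T cells (CD1D, SLA-6 and SLA-8) against 16.2% of all genes. HFE and FCGRT were 2 lower, against 18.4%. In epithelial cells the same 3 were lower, against 24.3%, while HFE and FCGRT were 2 higher, against 27.5%. SLA-6 stood at 0.800 UMIs per 10000 in B barcodes on day 0 and 0.397 on day 21, and at 0.880 and 2.23 in T barcodes. All 6 of these genes with enough UMIs were lower in B cells on day 21 than on day 0, against 29% of all genes, where the classical chains were lower too. FCGRT and HFE differed most of the 6. The 10 epithelial markers together stood at 13.7 UMIs per 10000 in the B sum of day 0 and 0.036 in that of day 21. The part of epithelial transcripts and free RNA in these differences was not tested. In T cells 4 of the 6 were higher, against 34.2% of all genes, and HFE and FCGRT were 2 lower, against 26.1%.

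The genes whose levels followed the mean of the 10 most closely were taken from 2763 genes over the 24 sums that entered the fit. Among the closest 10 were PARP14 (Pearson r = 0.86), LOC110255360, JAK1 (0.84), IFITM1 (0.83), GBP1 (0.83), RAP1B, FUNDC1, LOC100155195 and PHF11 (0.79). Sums of 1 library share its depth and its free RNA, so these values are a description. Among the 10 genes themselves, r was 0.94 between SLA-2 and SLA-3, 0.88 between TAP1 and TAP2, and 0.84 between PSMB8 and PSMB9, and -0.04 between B2M and PSMB8.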

How the data were processed

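The deposited files hold raw UMI counts per gene and barcode, which the authors made with Cell Ranger 3.1.0 (STAR) against Sscrofa11.1, unfiltered and not normalized. No annotation of cells was used here. Barcodes with at least 1000 UMIs and 500 genes were kept, assigned to lineages by summed marker UMIs and summed per library. The members, gene lists and rules were chosen with earlier results of these data known, and the named genes are the 10 members and fixed lists of pathway genes. Levels carry exact Poisson and ratios exact conditional binomial 95% intervals, for counting error only, since 1 library per age leaves no replicate. UMI counts of sums of at least 50 barcodes were tested with edgeR 4.0.16 (quasi-likelihood, TMM, filterByExpr, library as block, Benjamini-Hochberg adjustment, threshold 0.05) in R 4.3.3, and with DESeq2 1.42.0 as an alternative. The fit was run on simulated data with the same mean per gene in every lineage and age, a fixed dispersion and changes planted in T alone. That setting is simpler than these sums and holds no differences between ages. Other steps used Python 3.11.15 with scipy 1.17.1. Positions came from the RefSeq table of the same assembly. The likeness of genes was Pearson's r of log2(UMIs per 10000 + 0.1) among genes with a mean of at least 0.5 UMIs per 10000. The listed genes SLA-11 and MR1 have no row in the files used here. Alternatives changed the scaling, filter, block, thresholds, barcodes and libraries; those without the endothelial sums, without rule and marker genes, for day 7 against day 0 and for B barcodes with 0 cycling UMIs were chosen after seeing the data. The values of 1 listed gene are not reported here.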

Additional observations from a re-analysis of the deposited data

Results flagged for a closer look

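Several genes differed with age in opposite directions in 2 lineages, and none of these differences between lineages was tested, since each age has 1 library. Between day 0 and day 21 SLA-1 was 1.87-fold higher in T and 2.37-fold lower in B, SLA-2 was 2.19-fold higher and 3.25-fold lower, SLA-3 was 1.84-fold higher and 2.17-fold lower, and NLRC5 was 3.58-fold higher and 2.05-fold lower. With TMM scaling the T differences of SLA-1 and SLA-3 were under 1.5-fold. Between day 0 and day 7 B2M was 3.85-fold higher in epithelial and 2.20-fold lower in B barcodes.

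Between day 0 and day 14 the myeloid sums were higher and the endothelial sums lower, by 2.15-fold and 3.08-fold for B2M, 2.90-fold and 4.32-fold for SLA-1, 4.67-fold and 3.55-fold for SLA-2, and 5.58-fold and 2.12-fold for SLA-3. Between day 3 and day 14 the same pairs were 1.55-fold and 2.86-fold for B2M, 2.32-fold and 3.06-fold for SLA-1, 1.80-fold and 3.76-fold for SLA-2, and 2.01-fold and 2.71-fold for SLA-3. The endothelial values of day 14 rest on 56 barcodes that hold 0 UMIs of CDH5 and VWF, none of which passed the endothelial rule alone.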

How the results depend on the processing

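Lineages and B classes were paired within libraries by a library block, while ages, with 1 library each, could not be paired. Without the block 0 of the 10 genes were lower in cycling B cells (9 with it), 1 was lower in B than in T (3 with it), 0 were higher in myeloid and 0 lower in endothelial sums, with 3, 4, 2 and 3 at an unadjusted p below 0.05 in edgeR. Of the counts that answer a comparison, 292 of 346 stayed within 1.5 times the reported one, and no value changed sign with a call. The number lower in B against the mean of the others (1) was 4 in DESeq2, with library totals only and with barcodes of 1 rule, 5 with raised lineage thresholds, and 2 with at least 2000 UMIs and 1000 genes, with a mitochondrial share below 25% and with at least 20 barcodes per sum. The number higher in T (4) was 2 with raised thresholds and with 20 barcodes per sum. The number higher in myeloid sums (1) was 2 in DESeq2, with library totals and with raised thresholds, 4 with barcodes of 1 rule, and 0 with no filter, with 20 barcodes per sum and without the endothelial sums. The number lower in epithelial sums (4) was 8 with barcodes of 1 rule and 2 with 20 barcodes per sum. The number lower in endothelial sums (2) was 0 in DESeq2, with library totals, with no filter, with raised thresholds and with the mitochondrial limit, and 1 with barcodes of 1 rule and with 20 barcodes per sum. The number lower in B than in T was 1 with 20 barcodes per sum. Leaving out each library in turn gave 1 to 4 lower in B, 2 to 4 higher in T, 0 to 3 higher in myeloid, 2 to 5 lower in epithelial, 0 lower in endothelial sums, 1 to 4 lower in B than in T and 9 lower in cycling B cells. Across ages, the number higher in B on day 21 (1) was 0 with the mean over barcodes, TMM, barcodes of 1 rule and raised thresholds, the number higher in B on day 7 (4) was 1 with TMM and 2 with barcodes of 1 rule, and the number higher in endothelial sums on day 14 (1) was 0 with the mean over barcodes. The causes were not tested. Depth limits NLRC5 most, with 0 to 41 UMIs in each myeloid and epithelial sum.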

Other observations

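Of the 7 other proteasome genes listed, edgeR called 3 higher in T cells (PSME1, PSME2 and PSMB10) against 16.2% of all genes, 1 higher in B (PSME1) against 29.1%, 1 higher in epithelial cells (PSMB5) against 27.5%, and 3 lower in the endothelial sums (PSME1, PSME2 and PSMB10) against 5.6%. PSME1 and PSME2 encode an activator that opens the proteasome, and PSME2 was higher in T cells by 0.57 ± 0.11 on the log2 scale and lower in the endothelial sums (-0.52 ± 0.14). PSMB5, the constitutive partner of PSMB8, was higher in epithelial cells by 0.54 ± 0.15 and lower in T cells (-0.50 ± 0.14). JAK1, a kinase of the interferon receptors, was higher in T cells by 0.69 ± 0.09 and lower in epithelial cells (-0.42 ± 0.11).

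Some sums were too small to enter a comparison. The 36 epithelial barcodes of day 14 held 26.8 UMIs per 10000 of SLA-1, 40.8 of SLA-2, 12.4 of SLA-3, 1.04 of TAP1 and 4.86 of PSMB8, and their summed interferon-stimulated genes stood at 142. The 32 myeloid barcodes of day 7 held 39.8 UMIs per 10000 of B2M and 24.7 of SLA-1.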
